A study of Mus musculus with 12 samples.

Results

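Collagen IV and the laminins form the 2 networks of the basement membrane, the thin sheet of matrix on which epithelia rest and which separates the retina, the lens and the vessels of the eye from neighboring tissue. Gene expression of 9 chains was examined here: *Col4a3*, *Col4a4*, *Col4a5* and *Col4a6* of collagen IV, the laminin alpha chains *Lama1*, *Lama3* and *Lama5*, the beta chain *Lamb3* and the gamma chain *Lamc3*. These are 9 of the 770 genes of the nCounter PanCancer Pathways panel for mouse, taken by their symbols, and all 9 were on it. The 9 genes were chosen by their signal in these same samples, from the differences between the 3 groups, so their levels and differences are described here and no *p*-value is given for them.

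Collagen IV chains assemble in threes, and the textbook trimers are alpha1-alpha1-alpha2, found in nearly every basement membrane, alpha3-alpha4-alpha5, known from the kidney glomerulus, the inner ear and the lens capsule and retinal membranes of the eye, and alpha5-alpha5-alpha6, known from smooth muscle and epithelial membranes. Mutations of the chains of the alpha3-alpha4-alpha5 trimer cause Alport syndrome, in which the eye can be affected. A laminin holds 1 alpha, 1 beta and 1 gamma chain. The alpha1 chain belongs to the early embryo and to the inner limiting membrane between retina and vitreous, the alpha5 chain is the most widespread, and the alpha3 and beta3 chains belong to the laminin that anchors surface epithelia such as skin and cornea. The genes of the alpha1 and alpha2 chains of collagen IV and of the common laminin beta1, beta2 and gamma1 chains were not on the panel, so the ubiquitous trimers were not measured here.

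The 12 samples came from 12 mice. The 5 *RBS* lesions were eyes of *Rax-creERT2::Ctnnb1(ex3)Fl/+SmoM2Fl/+* embryos at E18.5, in which tamoxifen at E8.5 activates Cre in cells that use the *Rax* promoter, the early retinal precursors, so that beta-catenin is stabilized and an active form of Smoothened is expressed. In these eyes, cell masses replace most of the regular structures. The 4 control eyes came from *Ctnnb1(ex3)Fl/+SmoM2Fl/+* embryos of the same age, which carry both floxed alleles but no Cre. The study's methods describe tamoxifen injection of pregnant mice and do not state it separately for these 4 embryos. The 3 Shh medulloblastomas (Shh-MBs) were hindbrain tumors of 14-day-old *hGFAP-cre::SmoM2Fl/+* mice, which lack the *Ctnnb1* allele. Tissue, age and genotype cannot be told apart in any comparison with them. *Uty*, a gene of the Y chromosome, had a signal above 100 in all 3 Shh-MBs. Among the eyes it was above 100 only in *RBS* 1 and 3 and control eye 3, so sex was not evenly spread over the groups either. Whole pieces of frozen tissue were measured, so fewer cells of a type and less RNA per cell cannot be told apart.

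The panel counts RNA molecules with 1 pair of probes per gene. Values are given as normalized signal, taken here as a linear quantity without unit from which a background has been subtracted. The depths and counts above background rest on this reading. A sample's depth was between 335392 and 716684 counts above background, lowest in *RBS* 1, and 1 count was worth between 0.81 and 1.64 units of signal. A gene that did not exceed the background is listed at the lowest value of the sample, as were 52 to 123 genes in each. Among the 108 values of the 9 genes, 15 sat there and 51 were under 20, and such values rest on few counts. *Ctnnb1* was 7957 ± 395 (SD, n = 5) in *RBS* lesions and 5688 ± 171 (n = 4) in control eyes, and *Smo* was 177 ± 13.6 and 157 ± 14.5. The probe positions are not given in the sources used here, so neither gene checks the recombination. None of 10 lens markers was on the panel, nor were *Rax*, *Pax6* and *Sox2*, and the eye tissue could only be followed through 6 other progenitor genes. Of these, 4 fell in *RBS* lesions compared to control eyes, against 18.2% of all genes, among them the cyclin *Ccnd1* from 13870 ± 1834 to 1856 ± 374 and *Fgf15* from 968 ± 129 to 133 ± 33.0, and 1, *Id4*, rose from 719 ± 34.2 to 7553 ± 689, against 33% of all genes, by limma at an adjusted *p* under 0.05.

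**Figure D1:**
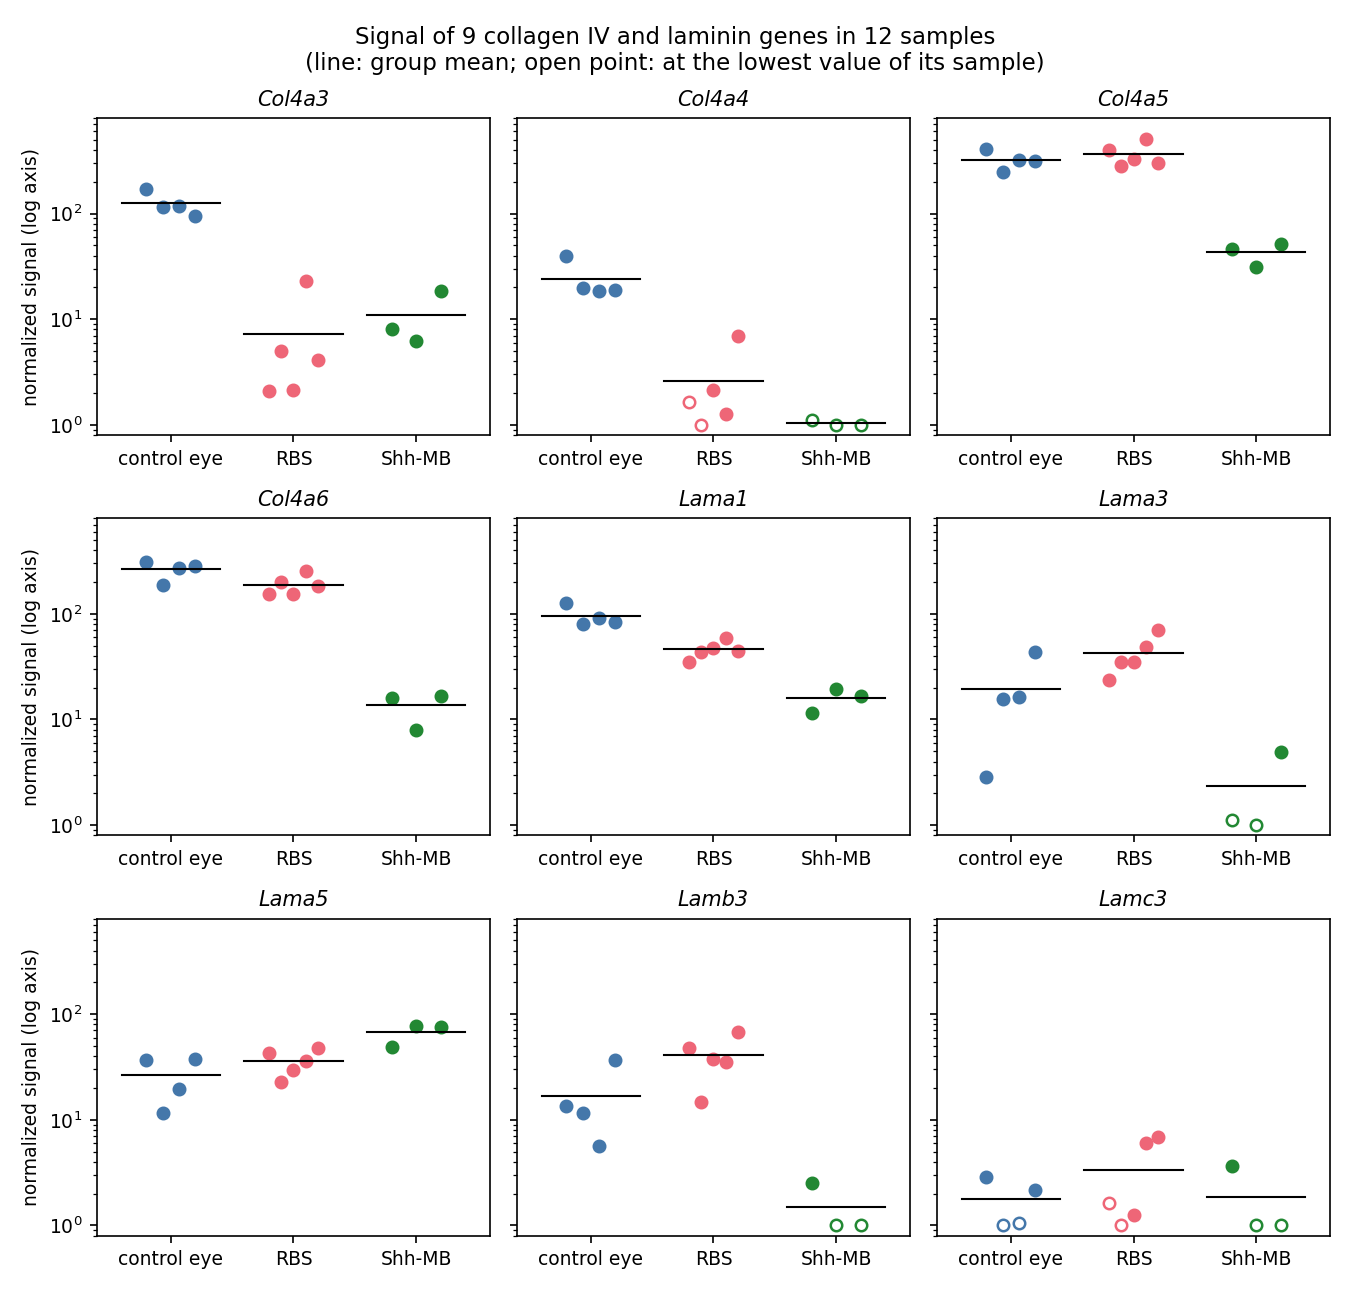
Normalized signal (log axis, no unit) of the 9 collagen IV and laminin genes in 4 control eyes, 5 *RBS* lesions and 3 Shh-MBs, with 1 point per animal, a line at the group mean and open points for values at the lowest value of their sample. *Col4a3*, *Col4a4* and *Lama1* had all lesions below all control eyes, and *Lama5* is the gene with its highest values in the Shh-MBs.

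Between the eyes, 3 of the 9 genes (*Col4a3*, *Col4a4* and *Lama1*) were lower in all 5 *RBS* lesions than in any of the 4 control eyes, which held for 15.8% of the 770 genes, and 0 were higher without overlap, which held for 27.5%. The same 3 were the ones called by limma, a linear model that shares the spread over all genes, at an adjusted *p* under 0.05, where 18.2% of all genes were called lower in lesions and 33% higher. The genes were picked with this contrast in view, so nothing is read from these shares. At an unadjusted *p* under 0.05, 4 were lower (with *Col4a6*) and 2 higher, against 19.7% and 36.1% of all genes. The methods' *t*-test with Benjamini-Hochberg adjustment called 3 lower and 0 higher, against 16.6% and 28.4%. The median log2 difference was 0.15 over the 9 genes and 0.17 over all 770.

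The 4 collagen IV genes of the panel lie in 2 neighboring pairs in the mouse genome, *Col4a3* with *Col4a4* and *Col4a5* with *Col4a6*, the genes of each pair pointing away from each other. The start of *Col4a3* lies within the 250 bases before the start of *Col4a4*, and the starts of *Col4a5* and *Col4a6* are 1343 bases apart. RefSeq windows (GRCm38.p6) matched 5 of the 9 genes, *Col4a4*, *Col4a5*, *Col4a6*, *Lama5* and *Lamb3*. They were searched on both strands for 5 motifs, and so were all 32851 windows of this length. The GC box with the letters GGGCGG was found in 32.7% of them, and the CCAAT box in 33.8%. The TATA box with the letters TATAAA was found in 12.4%. A motif of Tcf/Lef factors, CTTTGAT, was found in 3.21%, and a motif of Gli factors, TGGGTGGTC, in 0.225%. None of these motifs contains or is part of another. The windows before the collagen IV starts are shown because the starts of each pair lie close to each other and only one of the pairs differed between the eyes by a wide margin, as the values after them show. Each is printed 5′ to 3′ on the strand of its gene and ends at the base before its start, with capitals for a motif match on either strand. The *Col4a4* window, chr1:82586850-82587099 on the minus strand, held none of the 5 motifs, with 62.8% G and C against a median of 52.4% over all windows.
Col4a4: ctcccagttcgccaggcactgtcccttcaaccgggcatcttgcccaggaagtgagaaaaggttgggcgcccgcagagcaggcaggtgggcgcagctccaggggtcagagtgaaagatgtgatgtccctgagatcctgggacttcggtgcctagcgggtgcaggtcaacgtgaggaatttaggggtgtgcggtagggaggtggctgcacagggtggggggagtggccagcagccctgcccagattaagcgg
The *Col4a5* window is chrX:141475169-141475418 on the plus strand and held 1 CCAAT box and 1 GC box. The *Col4a6* window is chrX:141474077-141474326 on the minus strand, held 1 GC box and had 47.6% G and C against 54% in the *Col4a5* window.
Col4a5: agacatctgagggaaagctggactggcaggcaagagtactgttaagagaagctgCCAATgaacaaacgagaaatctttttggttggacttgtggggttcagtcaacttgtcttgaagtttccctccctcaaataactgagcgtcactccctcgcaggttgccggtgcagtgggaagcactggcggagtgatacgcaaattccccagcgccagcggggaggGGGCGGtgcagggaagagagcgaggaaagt
Col4a6: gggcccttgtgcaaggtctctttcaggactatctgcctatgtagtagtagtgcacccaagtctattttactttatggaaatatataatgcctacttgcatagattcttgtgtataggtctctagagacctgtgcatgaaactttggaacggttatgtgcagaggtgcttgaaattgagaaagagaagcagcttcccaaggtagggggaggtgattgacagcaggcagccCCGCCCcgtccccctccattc
The *Lama5* window held 4 GC boxes and the 2 *Lamb3* windows none of the 5 motifs. A match is a description of the letters and not a bound site.

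*Col4a3* and *Col4a4* were the genes of the set with the widest gap between control eyes and *RBS* lesions. *Col4a3* encodes the alpha3 chain of the trimer known from the lens capsule and retinal membranes. Its signal was 171, 116, 118 and 93.8 in control eyes 1 to 4, and 2.1, 4.97, 2.14, 23.0 and 4.14 in *RBS* lesions 1 to 5. The lowest control eye was far above the highest lesion, and within the lesions *RBS* 4 stood apart from the others. The mean was 125 ± 32.6 (SD, n = 4) in control eyes and 7.26 ± 8.86 (n = 5) in lesions, and the difference of the log2 values was −4.38 (SE 0.563). It was −4.88 without *RBS* 4 and −2.51 with every value under 20 set to 20. None of the lesions was at its lowest value for *Col4a3*, but they rest on 1.28 to 19.0 counts above background.

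*Col4a4* encodes the partner chain alpha4. It was at 39.3, 19.6, 18.4 and 18.8 in control eyes and at 1.64, 1, 2.14, 1.26 and 6.89 in *RBS* lesions, of which *RBS* 1 and 2 were at their lowest value. The groups did not overlap. Control eye 1 was the highest for both genes of the pair, while the highest lesion was *RBS* 4 for *Col4a3* and *RBS* 5 for *Col4a4*. The control mean was 24.0 ± 10.2 and the lesion mean 2.58 ± 2.44, with a log2 difference of −2.93 (SE 0.410). All *Col4a4* values but that of control eye 1 were under 20, and with every value under 20 set to 20 the log2 difference was −0.23, without a call.

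*Col4a5*, on the X chromosome, encodes the alpha5 chain, which both the alpha3-alpha4-alpha5 and the alpha5-alpha5-alpha6 trimers need. Its signal was 409, 249, 324 and 315 in control eyes and 403, 280.2, 325, 504 and 300.5 in *RBS* lesions. The groups lay over each other, with means of 324 ± 65.7 and 362 ± 91.7, and the log2 difference of 0.15 (SE 0.203) was smaller than its error. Its sign turned to −0.03 with centring on the median of all genes and to −0.06 with quantile normalization. *RBS* 4 was the highest of all 9 eyes, and the other lesions lay within the range of the control eyes, unlike every lesion for *Col4a3* and *Col4a4*, the genes of the partner chains.

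*Col4a6* encodes the alpha6 chain. It was at 313, 186, 274 and 283 in control eyes and at 155, 201, 153, 252 and 182 in *RBS* lesions. Control eye 2 lay among the lesions and the other 3 control eyes above all of them. The means of 264 ± 54.6 and 188 ± 40.7 differed 1.40-fold and the log2 difference was −0.48 (SE 0.196). It missed the threshold and passed it in 8 of 22 alternatives, among them those without control eye 2, at −0.64, and with median centring, at −0.66.

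Since both genes of the X-linked pair are measured in each sample, their ratio does not depend on how the samples were scaled. The ratio was chosen after the values had been seen. *Col4a6* over *Col4a5* was 0.765, 0.747, 0.846 and 0.901 in control eyes, 0.384, 0.717, 0.471, 0.5 and 0.604 in *RBS* lesions and 0.345, 0.255 and 0.325 in Shh-MBs. The 3 groups followed each other without overlap, at 0.815 ± 0.0717, 0.535 ± 0.128 and 0.309 ± 0.0471. Probes of different genes can differ in efficiency, so the ratio is compared between samples and is not a ratio of molecules.

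**Figure D2:**
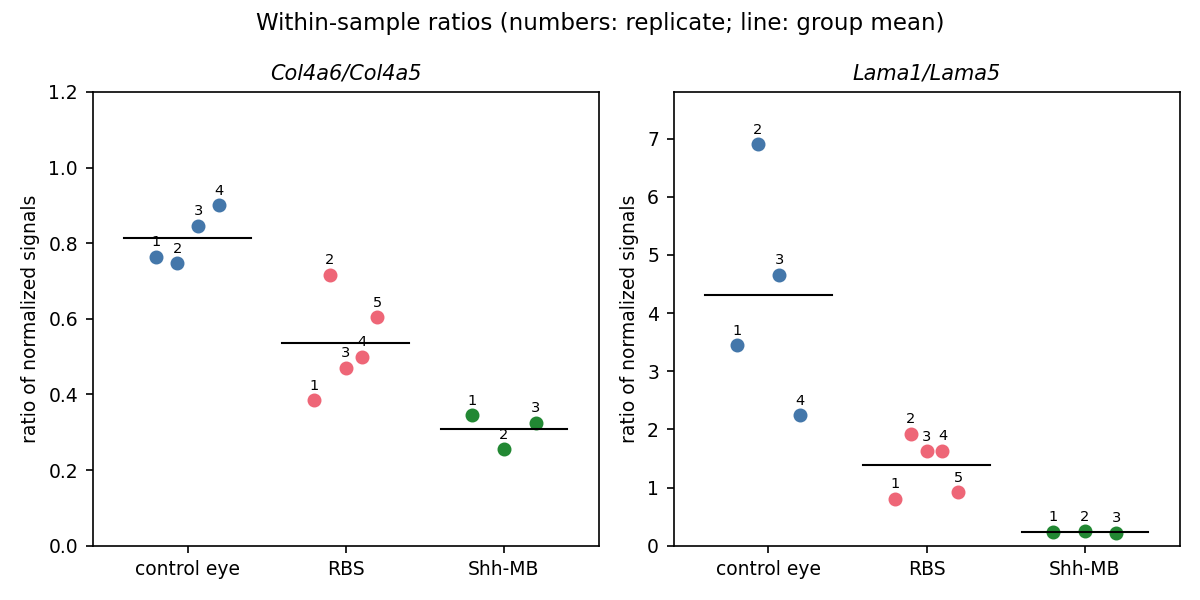
Ratio of the normalized signals of 2 genes within each sample (linear axis from 0, no unit), numbered by replicate with a line at the group mean, for 4 control eyes, 5 *RBS* lesions and 3 Shh-MBs. *Col4a6* over *Col4a5* and *Lama1* over *Lama5* were both highest in control eyes and lowest in Shh-MBs, without overlap between any 2 groups.

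*Lama1*, the laminin alpha chain of the early embryo and the inner limiting membrane, was the laminin gene whose eye groups did not overlap. It was at 127, 79.4, 90.6 and 84.5 in control eyes and at 34.9, 43.8, 48.0, 59.1 and 44.4 in *RBS* lesions. The lowest control eye was above the highest lesion, *RBS* 4. The mean was 95.4 ± 21.7 and 46.0 ± 8.74, 2.07-fold lower in lesions, with a log2 difference of −1.03 (SE 0.180) that stayed between −1.33 and −0.89 under the alternatives tried.

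*Lama5*, the widespread laminin alpha chain, did not follow *Lama1*. It was at 36.9, 11.5, 19.5 and 37.6 in control eyes and at 43.1, 22.8, 29.5, 36.2 and 48.0 in *RBS* lesions. Control eyes 1 and 4 lay among the lesions and control eyes 2 and 3 below all of them. The log2 difference was 0.53 (SE 0.364), with means of 26.4 ± 13.0 and 35.9 ± 10.2. *Lama1* over *Lama5* was 3.45, 6.90, 4.66 and 2.25 in control eyes and 0.81, 1.92, 1.63, 1.63 and 0.924 in lesions, again a ratio chosen after its values had been seen. No lesion reached the lowest control eye, and the mean ratio was 4.31 ± 1.99 and 1.38 ± 0.489.

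*Lama3* and *Lamb3*, of the laminin of surface epithelia, had the opposite direction of the means. *Lama3*, the alpha chain, was at 2.88, 15.6, 16.3 and 43.8 in control eyes and at 23.4, 34.9, 34.8, 48.3 and 70.9 in *RBS* lesions. Only control eye 4 overlapped the lesions. The means were 19.6 ± 17.3 and 42.5 ± 18.2, and the log2 difference was 1.44 (SE 0.628). It became 1.97 without control eye 4, past the threshold. It became 0.80 without control eye 1 and 0.68 with values under 20 set to 20.

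*Lamb3*, the beta chain of the same laminin, was at 13.4, 11.5, 5.66 and 36.5 in control eyes and at 48.1, 14.7, 37.4, 35.0 and 68.2 in *RBS* lesions. Control eye 4 lay among the lesions, and *RBS* 2 lay close to control eye 1. The means were 16.8 ± 13.6 and 40.7 ± 19.6 with a log2 difference of 1.36 (SE 0.541). It became 1.82 without control eye 4 and 1.68 without *RBS* 2, past the threshold in both cases. It became 0.98 without control eye 3 and 0.71 with values under 20 set to 20.

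*Lamc3*, a gamma chain known from a few tissues including retina and brain, was near background throughout. It was at 2.88, 1.01, 1.06 and 2.17 in control eyes, at 1.64, 1, 1.25, 6.08 and 6.89 in *RBS* lesions and at 3.63, 1 and 1 in Shh-MBs. In each group 2 samples were at their lowest value, and no difference was detectable at this depth.

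**Figure D3:**
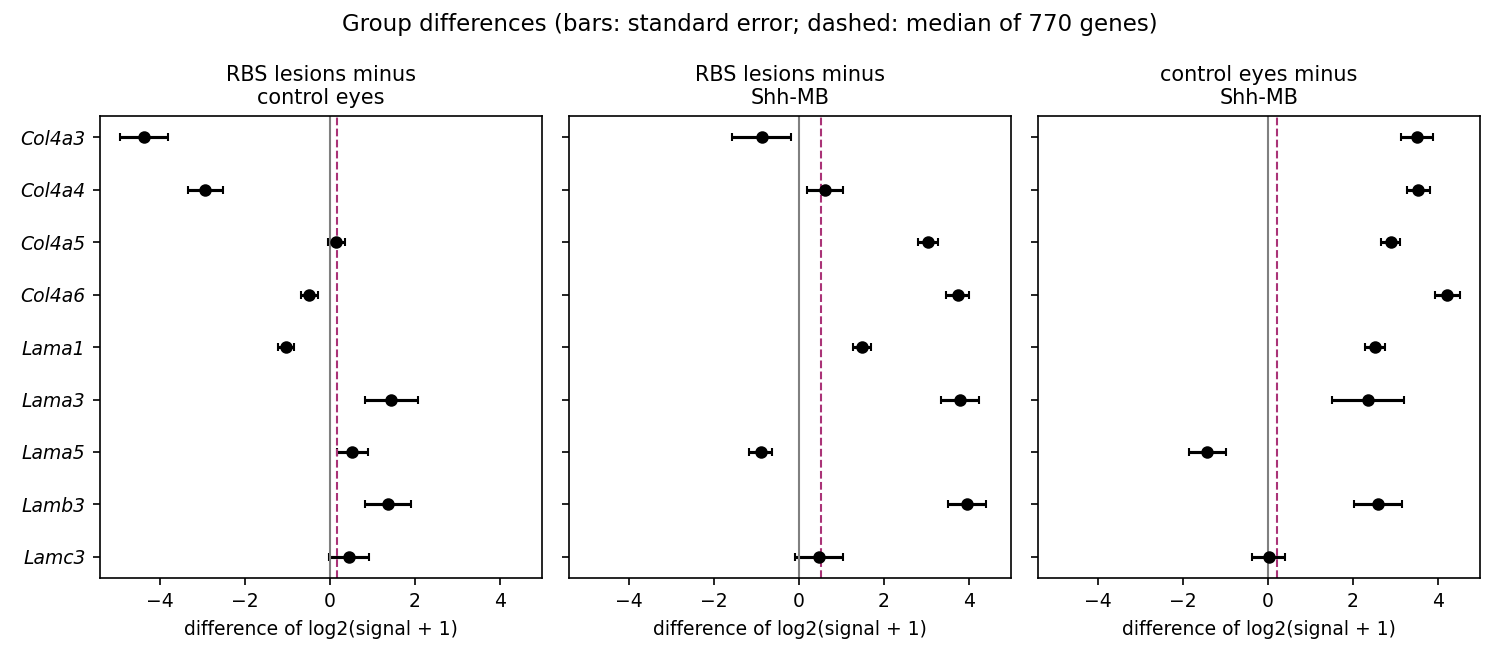
Difference of log2(signal + 1) between groups for each of the 9 genes, with bars for the standard error from limma, a solid line at 0 and a dashed line at the median of all 770 genes. The left panel has *Col4a3* at −4.38 and *Col4a4* at −2.93 with *Col4a5* near 0, and the other panels have *Lama5* as the one gene below 0 by more than 2 standard errors.

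Within the eye groups, several genes had their maximum in the same sample. In control eyes, eye 1 was the highest for *Col4a3*, *Col4a4*, *Col4a5*, *Col4a6* and *Lama1*, all 5 of them, and eye 4 for *Lama3*, *Lamb3* and *Lama5*, all 3. In *RBS* lesions, lesion 4 was the highest for 4 of the first 5 genes and lesion 5 for all 3 of the others. *Lamc3*, near background, was highest in control eye 1 and in *RBS* 5. In Shh-MBs the sets did not hold together, since *Lama3*, *Lamb3* and *Lama5* were highest in tumors 3, 1 and 2 and *Lama1* was highest in tumor 2, unlike *Col4a3*, *Col4a5* and *Col4a6* in tumor 3. The grouping was made after the values had been seen.

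Markers of other tissues of the orbit had their highest values in some of the same samples. Of 13 surface epithelium markers considered here 5 were on the panel (*Cdh1*, *Sfn*, *Calml3*, *Itgb4* and *Itga2*). Eye 4 was the highest control for 3 of them, and *RBS* 1 and *RBS* 5 were the highest lesion for 2 each. Their summed signal was 295 to 551 in control eyes, 539.8 to 911 in lesions and 8.51 to 23.3 in Shh-MBs, and *Sfn* was under 7 in all 12 samples. By limma, 3 of the 5 rose in lesions (*Itga2*, *Itgb4* and *Calml3*) and 0 fell, against the 33% and 18.2% of all genes given above. *Calml3*, a calmodulin-like protein of epithelia, rose by 0.92 on the log2 scale (SE 0.228, adjusted *p* = 0.0082). *Cdh1*, the E-cadherin of epithelia, was at 111, 78.4, 145 and 228 in control eyes and between 133 and 264 in lesions, with a log2 difference of 0.57 (SE 0.316, adjusted *p* = 0.168).

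Of 13 mesenchyme markers 9 were on the panel, and control eye 4 was the highest control for 8 of them and *RBS* 1 the highest lesion for 5. Their summed signal was 25678 to 58168 in control eyes, 20027 to 36690 in lesions and 1482 to 2105 in Shh-MBs, and 0 rose and 3 fell in lesions compared to control eyes, against 33% and 18.2% of all genes. *Ibsp*, the bone sialoprotein, is on the list of other matrix genes and not among these 9. It was at 452 in control eye 4 and at 13.4, 16.6 and 1.06 in the other control eyes. In *RBS* 1 to 5 it was at 599.5, 91.6, 170.5, 29.0 and 452 (log2 difference 2.92, SE 1.48, adjusted *p* = 0.136 by limma).

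Markers of vessels, blood cells and neurons also differed between the eyes. Of 12 endothelium and blood markers 5 were on the panel, with a summed signal of 1897 to 2355 in control eyes, 955 to 1208 in lesions and 271 to 550.01 in Shh-MBs. *Kdr*, the VEGF receptor of endothelium, a cell layer that rests on a basement membrane, made up most of that sum in the eyes. It fell from 1864 ± 235 to 664 ± 109 (log2 difference −1.49, SE 0.142, adjusted *p* = 4.32e-05 by limma), whereas *Flt1*, another VEGF receptor, differed by 0.12 (SE 0.302, adjusted *p* = 0.771) and *Kit*, *Csf1r* and *Cd14* rose. These were 3 of 5 higher and 1 lower, against 33% and 18.2% of all genes. Of 12 neuron markers 5 were on the panel, of which 4 rose and 1, *Ngfr*, fell, against the same shares. Their summed signal was 856 to 978 in control eyes, 2302 to 3055 in lesions and 613 to 808 in Shh-MBs. Control eye 1 was the highest control for 3 of the 5 neuron markers and 2 of the 6 progenitor genes. Control eye 2 was the highest control for 3 of the 6 progenitor genes, more than control eye 1. *RBS* 4 was the highest lesion for 3 of the 5 neuron markers and 4 of the 6 progenitor genes. Control eye 1 and *RBS* 4 held the maxima of most collagen IV genes and *Lama1*, and control eye 2 held none of them. The part of all these tissues in the laminin and collagen IV values was not tested.

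**Figure D4:**
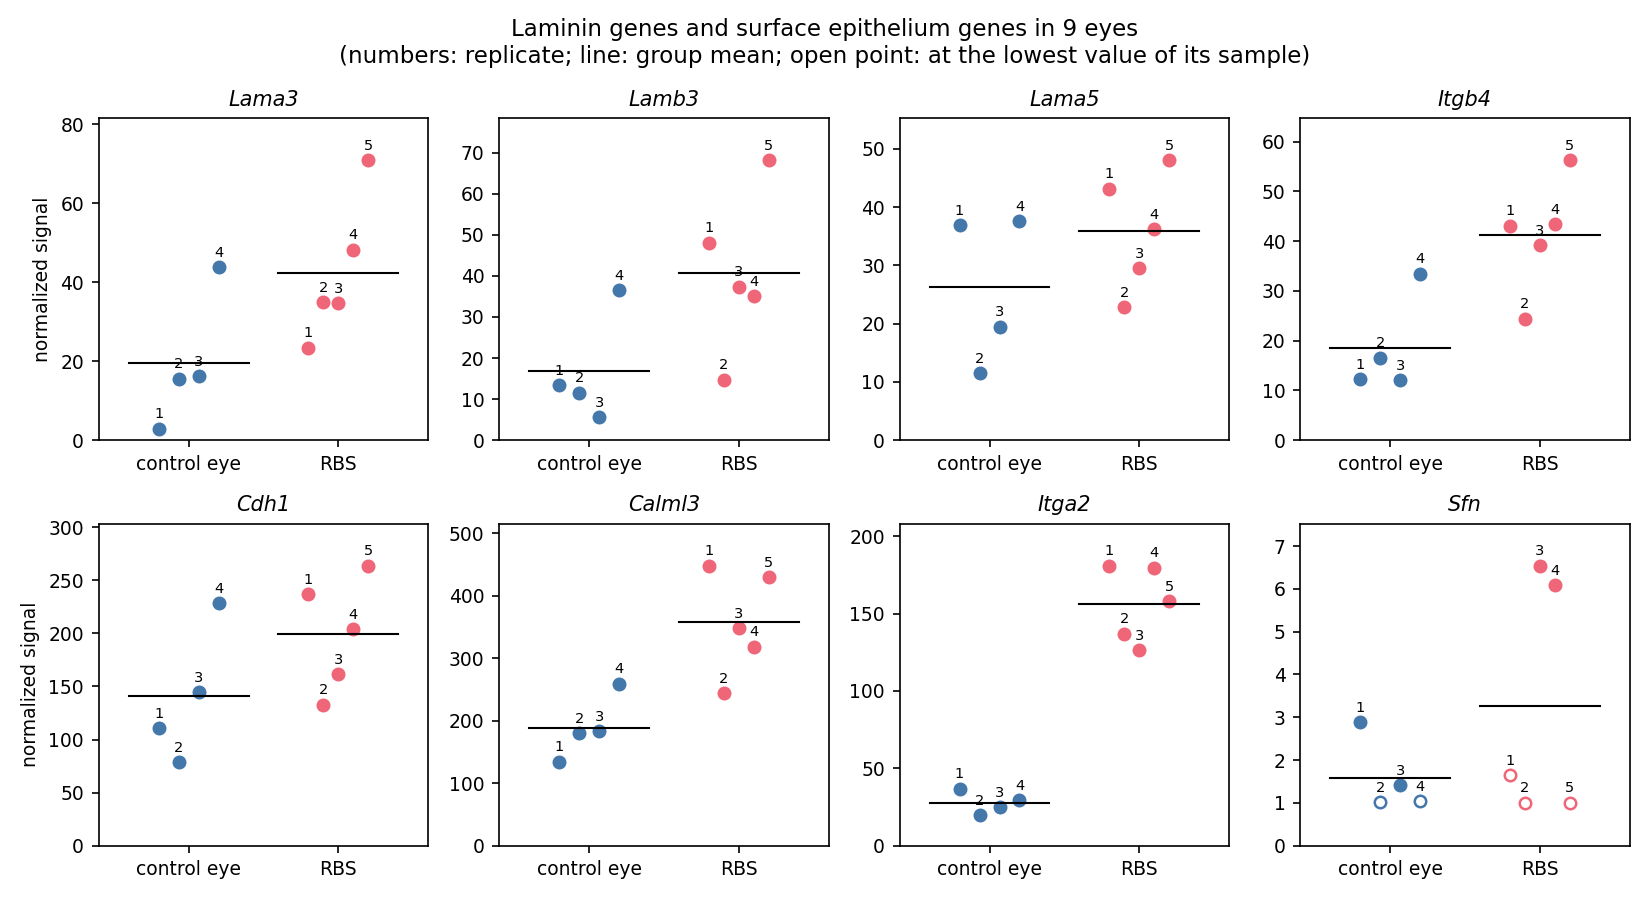
Normalized signal (linear axes from 0, no unit) of the laminin genes *Lama3*, *Lamb3* and *Lama5* and of the 5 surface epithelium markers *Itgb4*, *Cdh1*, *Calml3*, *Itga2* and *Sfn* in 4 control eyes and 5 *RBS* lesions, numbered by replicate with a line at the group mean and open points for values at the lowest value of their sample. Control eye 4 is the highest control in the plots of the 3 laminin genes and 3 of the 5 markers, and control eye 1 in those of *Itga2* and *Sfn*; *RBS* 5 is the highest lesion for the 3 laminin genes, *Itgb4* and *Cdh1*, *RBS* 1 for *Calml3* and *Itga2*, and *RBS* 3 for *Sfn*.

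Compared with Shh-MBs, most of the genes were higher in the eyes. *Col4a5* was 46.2, 31.5 and 51.5 in the 3 tumors (mean 43.1 ± 10.4), 8.42-fold below *RBS* lesions (log2 difference of lesions minus tumors 3.04, SE 0.238) and 7.53-fold below control eyes. *Col4a6* was 15.9, 8.03 and 16.7 (mean 13.6 ± 4.82), 13.9-fold below lesions (3.74, SE 0.265) and 19.5-fold below control eyes. No tumor reached any eye for either gene. With quantile normalization the log2 differences of lesions minus tumors were 2.11 for *Col4a5* and 2.44 for *Col4a6*, and those of control eyes minus tumors were 2.17 and 3.10 in place of 2.89 and 4.22.

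The other pair set the lesions apart from the control eyes here as well. *Col4a3* was 8.1, 6.16 and 18.4 in the tumors (mean 10.9 ± 6.60), 11.4-fold below control eyes, whereas lesions and tumors overlapped with a log2 difference of −0.87 (SE 0.692). It became −1.38 without *RBS* 4 and −2.06 with quantile normalization, past the threshold in both, and 0.04 with values under 20 set to 20. For control eyes minus tumors it was 3.50, and 2.46 with quantile normalization. *Col4a4* was at the lowest value in all 3 tumors, so no fold is given for it. The tumors overlapped the lesions, 2 of which were also at their lowest value, and lay below every control eye.

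*Lama1* was 11.5, 19.3 and 16.7 in Shh-MBs (mean 15.8 ± 3.99), so that control eyes, lesions and tumors followed each other without overlap. The lesions were 2.91-fold above the tumors (log2 difference 1.49, SE 0.208), which shrank to 0.65 with median centring and 0.06 with quantile normalization and lost its call in both. *Lama5* had the reverse order, with 48.4, 77.3 and 75.3 in tumors, each above all lesions and control eyes, although Shh-MB 1 exceeded *RBS* 5 by little. The tumor mean of 67.0 ± 16.1 was 1.87-fold above lesions (lesions minus tumors −0.90, SE 0.270) and 2.54-fold above control eyes (−1.43, SE 0.440). With quantile normalization these differences were −1.93 and −2.21. The call against lesions was lost in 6 of 20 alternatives and that against control eyes in 6 of 19, among them those without Shh-MB 2 (−0.78 and −1.31) or Shh-MB 3 (−0.80 and −1.33) in both, and without control eye 3 (−1.34) in the latter. *Lama1* over *Lama5* was 0.237, 0.249 and 0.222 in the tumors, below every eye.

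*Lama3* and *Lamb3* were near background in Shh-MBs. *Lama3* was at 1.12, 1 and 4.87 and *Lamb3* at 2.51, 1 and 1, with 2 tumors at their lowest value for each. The lesions were above the tumors by 3.80 (SE 0.450) and 3.96 (SE 0.455) on the log2 scale, and the groups did not overlap. With every value under 20 set to 20, which takes in all the tumor values, these differences were 0.95 and 0.92, the latter without a call. Control eyes were above the tumors by 2.35 (SE 0.840) for *Lama3*, where control eye 1 at 2.88 lay among the tumors, and by 2.60 (SE 0.572) for *Lamb3*. Under the alternatives these differences ranged from 0.27 to 3.00 and from 0.21 to 2.97. *Lama3* missed the threshold and passed it in 3 of 18 alternatives, and *Lamb3* lost its call in 2 of 18.

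By limma, 5 of the 9 genes were called higher in lesions than in Shh-MBs, against 48.1% of all genes, and 1, *Lama5*, lower, against 12.7%. The same genes were those without overlap, against 47% and 12.9% of all genes. Between control eyes and tumors 6 were called higher, against 31.4% of all genes, and again *Lama5* lower, against 9.61%. These too were the genes without overlap, against 36% and 12.2%. The choice of the genes used these contrasts as well. Both comparisons share the 3 tumors, and each eye group also enters the comparison of the eyes. The median log2 difference was 1.49 over the 9 genes and 0.53 over all genes for lesions minus tumors, and 2.60 and 0.22 for control eyes minus tumors.

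Cells bind collagen IV and laminin through integrins, and 5 of 13 receptor genes listed were on the panel. Of these, 3 rose in *RBS* lesions compared to control eyes and 0 fell, against 33% and 18.2% of all genes, with a median log2 difference of 0.76 against 0.17. *Itga2* and *Itgb4* were also counted among the surface epithelium markers above, so the counts of these lists share genes. *Itga2*, the alpha subunit of a collagen and laminin receptor, was at 36.9, 19.6, 24.8 and 29.3 in control eyes and between 126 and 181 in lesions, without overlap (log2 difference 2.48, SE 0.189, adjusted *p* = 1.31e-05). *Itga6* and *Itgb4* encode the 2 subunits of the laminin receptor of hemidesmosomes, and *Itga6* also pairs with another beta subunit in many other cells. They rose by 0.74 (SE 0.142, adjusted *p* = 0.00221) and 1.19 (SE 0.326, adjusted *p* = 0.0139), with all 5 lesions above all 4 control eyes for *Itga6* and with control eye 4 among the lesions for *Itgb4*, whose call was lost with the methods' *t*-test (Benjamini-Hochberg adjusted *p* = 0.0564).

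The laminin receptor subunits *Itga3* and *Itga7* did not pass the test between the eyes, with log2 differences of 0.14 (SE 0.154, adjusted *p* = 0.497) and 0.76 (SE 0.699, adjusted *p* = 0.41). *Itga7* stood out in Shh-MBs, at 151, 155 and 194 against 13.3 to 38.2 in lesions (lesions minus tumors −2.97, SE 0.306, adjusted *p* = 7.39e-05), the same side as *Lama5*. The other 4 receptor genes were called higher in lesions than in tumors, where 48.1% of all genes were called higher and 12.7% lower. *Itga2* was at the lowest value in all 3 tumors.

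Among 11 other matrix genes on the panel of 24 listed, 3 rose and 4 fell in *RBS* lesions compared to control eyes, against 33% and 18.2% of all genes, with a median log2 difference of −0.08. *Thbs4* and *Tnn*, matrix proteins known from tendon and bone, fell by 2.61 (SE 0.324, adjusted *p* = 0.000183) and 2.29 (SE 0.531, adjusted *p* = 0.00592) on the log2 scale. *Tnn* was under 16 in all lesions, and with values under 20 set to 20 its difference was −0.76 and the call was lost (adjusted *p* = 0.0667). *Tnc*, tenascin-C, and *Spp1*, osteopontin, rose by 1.34 (SE 0.130, adjusted *p* = 4.91e-05) and 1.33 (SE 0.263, adjusted *p* = 0.00249). Fibronectin, *Fn1*, was at 878 ± 284 in control eyes and 849 ± 350.1 in lesions, with a log2 difference of −0.08 (SE 0.309, adjusted *p* = 0.843).

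Of 5 matrix proteases on the panel of 12 listed, 2 rose and 0 fell, against 33% and 18.2% of all genes. *Plat* and *Plau*, the plasminogen activators, rose by 2.11 (SE 0.180, adjusted *p* = 2.42e-05) and 1.12 (SE 0.322, adjusted *p* = 0.0171), and the call of *Plau* was lost without control eye 3 (0.95, adjusted *p* = 0.051). *Plat* was between 114.9 and 181 in control eyes and between 496 and 773 in lesions. The metalloproteases *Mmp3* and *Mmp9* did not pass the test. *Mmp7* was at the lowest value of the sample in every eye and every tumor. It did not exceed the background, so its test between the eyes is not informative.

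To see which genes of the panel ran most alike, each gene's log2 values were centered on their mean over the 12 samples and the root mean square difference between genes was taken. The samples fall into 3 groups, so this likeness mainly describes the group levels. *Col4a5* was closest to *Gpc4*, a glypican, at 0.318 and *Notch1* at 0.329, against a median of 1.26 over the other genes. *Col4a6* was closest to *Notch1* at 0.434 and *Vegfa* at 0.460 (median 1.68). *Lama1* was closest to the Notch targets *Hes1* at 0.310 and *Hes5* at 0.331 (median 1.05), which fell by 0.73 and 0.89 in *RBS* lesions compared to control eyes (adjusted *p* = 0.00403 and 0.00138). *Col4a3* had no neighbor nearer than *Ccnd1*, cyclin D1, and *Birc7*, both at 1.10 (median 2.20). *Lamb3* was closest to *Itgb4* at 0.504 and *Wnt5a* at 0.565 (median 1.60), *Lama3* to *Wif1* at 0.706 and *Figf* at 0.740 (median 1.64), and *Lama5* to *Pdgfra* at 0.376 and *Myc* at 0.435 (median 0.963). *Col4a4* and *Lamc3*, at their lowest value in 5 and 6 samples, were not searched.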

How the data were processed

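RNA of 12 frozen mouse tissue samples was counted on the nCounter Mouse PanCancer Pathways panel. The authors normalized the counts with nSolver and nCounter Advanced Analysis. The deposited values were taken as a linear signal with a background subtracted and 1 factor per sample. The background setting and reference genes are not given in the sources used here. Groups came from the sample labels, and each sample is 1 animal.

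No filter was set, 1 was added to each signal, and the log2 values were fitted with limma 3.58.1 in R 4.3.3 (lmFit and eBayes, 2 groups at a time, two-sided, Benjamini-Hochberg over all 770 genes, threshold 0.05), which was tested on simulated data. The methods' Welch *t*-test was run without its permutations as an alternative. Other pseudocounts, scalings, filters, fits with all samples or a replicate block, and leaving out each sample were further alternatives. A sample's step between low values gave its depth. The 9 genes, the gene lists and the tests were chosen with earlier results of these data known. Genes outside the 9 were named if past the threshold with the largest difference, at most 4 per list and comparison. Genes of the marker lists were added to describe those lists, and *Itga3*, *Itga7*, *Mmp3*, *Mmp7* and *Mmp9* to complete a list. *Fn1* and *Ibsp*, of the other matrix genes, were added outside this rule, and that list is not named in full. Python 3.11.15 with matplotlib 3.10.9 drew the figures. Promoter windows are RefSeq's, cut to the 250 bases before the start. Of the genes listed, 2 are not reported here and were left out of the gene lists.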

Additional observations from a re-analysis of the deposited data

Results flagged for a closer look

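Values that stood far from the rest of their group were found in 3 of 22 groups of values, those of the 9 genes and 2 ratios in control eyes and in *RBS* lesions. The gap to the nearest sample was set against the range of the group (Dixon's ratio), and chance gives about 1 in 20 groups such a gap. *Col4a3* was at 23.0 in *RBS* 4, where the next lesion was at 4.97. *Col4a4* was at 6.89 in *RBS* 5, where the next lesion was at 2.14. *Col4a4* was also at 39.3 in control eye 1, where the next control eye was at 19.6. The 2 lesion values rest on few counts above background.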

How the results depend on the processing

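The count of the 9 genes called by limma was compared over the alternatives. For *RBS* lesions against control eyes, 0 higher became 1 with genes of a low mean left out, with all 12 samples in one fit and with trend and robust settings, and 3 lower became 0 with the methods' *t*-test and step-down Bonferroni, 2 with values under 20 set to 20, where *Col4a4* lost its call, and 4 with median centring, housekeeping centring, quantile normalization, trend and robust settings and the scaling named below. For lesions against Shh-MBs, 5 higher became 4 with median centring, quantile normalization and values under 20 set to 20, 3 with low genes left out and 0 with step-down Bonferroni. Of the lower calls there, 1 became 2 with quantile normalization and 0 with all 12 samples, the methods' *t*-test under either adjustment and the replicate block. For control eyes against Shh-MBs, 6 higher became 4 with low genes left out and with values under 20 set to 20, 7 with all 12 samples and with trend and robust settings, and 0 with step-down Bonferroni, and 1 lower became 0 with the methods' *t*-test under either adjustment and the replicate block. Low genes left out means fewer genes tested, and for the other settings the cause was not tested.

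Leaving out each sample in turn gave 0 to 2 higher (1 without *RBS* 2, 2 without control eye 4) and 3 to 4 lower for the eyes, 5 higher and 0 to 2 lower for lesions against tumors (0 without Shh-MB 2 or 3, 2 without *RBS* 4), and 6 to 7 higher and 0 to 1 lower for control eyes against tumors (0 without Shh-MB 2, Shh-MB 3 or control eye 3). The labels do not state that samples with the same replicate number belong together. Same-numbered eyes correlated between −0.15 and 0.19 in their deviations. Differently numbered eyes were not set beside them, so this does not decide whether samples are paired. With the replicate block the counts were 0 higher and 3 lower for the eyes, 5 and 0 for lesions against tumors, and 6 and 0 for control eyes against tumors. The block ended the calls of *Tnn* and *Plau* between the eyes (adjusted *p* = 0.0599 and 0.055 by limma). A term for eyes with *Uty* above 100 (*RBS* 1 and 3 and control eye 3; all 3 Shh-MBs were also above 100 and were not in that fit), and a scaling by the summed signal after the 3 highest genes were dropped, were chosen after seeing the data. With the *Uty* term the counts for the eyes were 0 and 3.

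Single genes without a call changed sign under median centring, to −0.23 for *Col4a4* in lesions against tumors and to −0.65 for *Lamc3* in control eyes against tumors. With values under 20 set to 20, *Col4a3* turned to 0.04 in lesions against tumors, and *Lamc3* changed sign in 2 of 19 alternatives there and in 10 of 18 for control eyes against tumors. *Col4a6* between the eyes passed the threshold in 8 of 22 alternatives, with differences from −0.67 to −0.39 over all of them. Low signal limits *Col4a4*, *Lamb3*, *Lama3* and *Lamc3*. With values under 20 set to 20, control eyes against tumors gave 0.23 for *Col4a4* and 0.21 for *Lamb3*, without a call.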
